A study of Mus musculus with 2 samples.

Results

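The genes described here are 10 immediate-early genes, namely Fos, Fosb, Jun, Junb, Jund, Egr1, Atf3, Ier2, Nr4a1 and Dusp1. They were taken by name and not by a cut on measured values, although earlier results of these data were known. The count tables hold 24543 genes per cell, and all 10 were found in both tables. Counts came from 2139 single cells sorted as CD31+CD44+ from the caudal-half tissue of mouse embryos at embryonic day 10, a region that holds the dorsal aorta. Each of the 2 replicates was a pool of cells of both genotypes, told apart by oligo hashtags and run in a single lane of a 10x Chromium V3 chip. The cKO cells came from Vec-Cre;Nupr1 fl/fl embryos, in which a Cdh5 (VE-cadherin) promoter drives Cre in endothelial cells and their descendants. The control cells carry the hashtag label WT and came from littermates that the study describes as Nupr1 fl/fl or Nupr1 fl/+. All mice were kept on a C57BL/6 background. The number of embryos behind each hashtag is not given in the sources used here. P-values therefore measure the spread within this set of pools, which in fits with a pool or replicate term is the spread left after that term.

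Immediate-early genes are transcribed within minutes of a stimulus without new protein synthesis. Their promoters are opened by factors that wait in the nucleus, such as Creb1 at cyclic AMP response elements and Srf with Elk factors at serum response elements, once MAP kinases modify these. Fos and Fosb encode partners of the Jun proteins in the AP-1 dimer, Egr1 and Nr4a1 encode zinc finger and nuclear receptor type transcription factors, and Dusp1 encodes a phosphatase that switches MAP kinases off. In endothelium they are known for their response to flow and growth factors, and in all cells for their response to tissue dissociation. The endothelial to haematopoietic transition (EHT) is the step by which cells of the arterial wall turn into blood cells.

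Cells were grouped by marker genes only, none of which is a member. The EHT gate took cells with at least 2 UMIs of both Gfi1 and Neurl3, the arterial gate at least 5 of Gja5, the plexus gate at least 2 of both Kitl and Esm1, the myeloid gate at least 5 of Mpo and 2 of Fcgr3, the megakaryocyte gate at least 5 of Gp9 and the macrophage gate at least 10 of C1qa. These gates held 145, 409, 30, 206, 218 and 580 cells, respectively. Another 449 cells passed no gate, and cells passing several gates were left out, except 47 EHT-gate cells that also passed the arterial gate. Counts were summed per gate, genotype and replicate over at least 10 cells, which gave 4 sums for the EHT, arterial, myeloid and macrophage gates, 2 sums for the megakaryocyte gate (both from replicate 2) and 1 sum for the plexus gate (cKO replicate 1, 17 cells). Median depth per sum was 20754 to 25839 UMIs per cell in the arterial gate and 50654 to 62010 in the EHT gate, and no cell barcode was shared by the replicates. The fixed marker lists followed the labels with few exceptions: 8 of 10 markers were highest in the EHT gate (not Procr and Spi1), 3 of 4 in the plexus gate (not Plvap), 7 of 8 in the myeloid gate (not Fcgr3), and all in the arterial, macrophage and megakaryocyte gates. The 10 arterial markers summed to 415 to 997 CPM (UMIs per 1000000 UMIs of a sum) in the EHT gate against 3617 to 4517 in the arterial gate. The 4 plexus markers summed to 1236 CPM in the plexus sum and to 1025 to 1639 in the arterial sums, so that this total did not separate them. Cells passing both the arterial and plexus gates numbered 43 and were left out. Nupr1 itself was counted at 54.0 and 32.4 CPM in the control EHT sums and at 1.69 and 2.80 in the cKO ones.

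Promoter sequences are shown for the 4 members whose level differed between the EHT and arterial gates, because 3 of them carry letters of the cyclic AMP response element. Of the 10 members, 8 matched an entry in the RefSeq promoter table (GRCm38.p6), and the 250 bases before the start are printed 5′ to 3′ on the strand of the gene, counted from the start that RefSeq gives. A GENCODE transcript starts within 30 bases of it for 7 of the 8, the exception being Jund, whose only GENCODE start lies 1210 bases downstream, and GENCODE also holds longer transcripts of Nr4a1, Dusp1 and Atf3 that start further upstream. Capitals mark the core element TGACG, searched on both strands (CGTCA is its reverse), and the full palindrome TGACGTCA where present.

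Fos, chr12:85473640-85473889, plus strand: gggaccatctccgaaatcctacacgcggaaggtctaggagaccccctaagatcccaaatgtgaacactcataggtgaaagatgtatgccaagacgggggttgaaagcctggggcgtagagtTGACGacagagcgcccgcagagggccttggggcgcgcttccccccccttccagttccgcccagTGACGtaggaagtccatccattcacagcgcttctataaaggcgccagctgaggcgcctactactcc
Nr4a1, chr15:101266596-101266845, plus strand: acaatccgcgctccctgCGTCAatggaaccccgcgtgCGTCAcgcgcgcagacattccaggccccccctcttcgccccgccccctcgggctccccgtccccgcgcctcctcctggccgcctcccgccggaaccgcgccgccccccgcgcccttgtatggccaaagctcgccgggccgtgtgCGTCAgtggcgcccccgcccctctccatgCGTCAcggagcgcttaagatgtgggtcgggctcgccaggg
Dusp1, chr17:26508473-26508722, minus strand: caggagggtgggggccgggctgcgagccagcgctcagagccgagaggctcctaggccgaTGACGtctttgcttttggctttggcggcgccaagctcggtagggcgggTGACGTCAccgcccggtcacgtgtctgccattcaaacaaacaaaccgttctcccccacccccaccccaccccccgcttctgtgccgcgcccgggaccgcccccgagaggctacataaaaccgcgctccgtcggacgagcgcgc
Jun, chr4:95052223-95052472, minus strand: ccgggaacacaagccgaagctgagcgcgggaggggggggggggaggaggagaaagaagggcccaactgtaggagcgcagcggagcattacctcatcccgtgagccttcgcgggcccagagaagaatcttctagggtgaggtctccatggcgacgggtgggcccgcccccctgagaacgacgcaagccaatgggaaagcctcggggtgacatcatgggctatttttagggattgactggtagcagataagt

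The core element was found in 6 of the 8 member promoters, those of Fos, Fosb, Junb, Atf3, Nr4a1 and Dusp1, and in 17.9% of all 27025 promoters of the same length. Nr4a1 held 4 copies, all on the reverse strand, at -233, -213, -69 and -40 from the start. Dusp1 held a copy at -191 and the full element at -143, which 1.62% of all promoters hold. Fos held copies at -129 and -66, followed by a TATAAA box at -33 that 13.0% of promoters share. The Jun window held no TGACG but a CCAAT box at -65 (34.5% of promoters). A serum response element of the CArG form was in none of the 8 windows and in 1.40% of all. Bases further upstream were not searched, Egr1 and Ier2 had no window, and the Jund window lay away from its only GENCODE start. Whether the members carry such elements outside the windows is therefore not known from this search. The member windows were rich in G and C, with a median of 65.8% against 52.0% over all promoters. These matches describe letters in the windows and not sites in use.

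Jun was the member that differed most clearly between the EHT and arterial gates. Its level was 2015, 2683, 2532 and 3383 CPM in the EHT sums of control replicate 1, control replicate 2, cKO replicate 1 and cKO replicate 2, and 807, 1395, 787 and 1449 in the arterial sums in the same order. Every EHT sum lay above every arterial sum, and within each of the 4 pools the EHT level was 1.92 to 3.22 times the arterial one. The fitted difference was a log2 fold change of 1.34 (SE 0.13, edgeR quasi-likelihood test with the pool as a block, adjusted p = 3.81e-06 over all genes), a 2.54-fold rise. Among cells thinned to 6000 UMIs, 97.9% of EHT-gate cells had a Jun UMI (exact 95% interval 94.1 to 99.6) against 83.3% of arterial cells (79.3 to 86.8). This difference passed the test under all 14 alternatives run, with log2 fold changes of 1.19 to 1.60.

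Nr4a1, an orphan nuclear receptor gene, was the other member that rose. It was counted at 71.4, 56.5, 79.9 and 214 CPM in the EHT sums, in the pool order above, and at 28.0, 37.0, 39.9 and 43.3 in the arterial sums. The lowest EHT sum lay above the highest arterial sum, and cKO replicate 2 stood well above the other 3 EHT sums. The log2 fold change was 1.45 (SE 0.48, edgeR, adjusted p = 0.0264), and 26.9% of thinned EHT-gate cells held a Nr4a1 UMI against 11.4% of arterial cells. The call was lost without cKO replicate 2 (log2 fold change 1.10, edgeR adjusted p = 0.240), without control replicate 2 (1.68, adjusted p = 0.110) and with gates set on CPM (1.21, adjusted p = 0.0503).

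Fos, the partner of Jun in the AP-1 dimer, moved the other way. It was counted at 105, 149, 95.9 and 220 CPM in the EHT sums and at 187, 272, 145 and 392 in the arterial sums. The ranges overlapped, with replicate 2 the higher in both gates and genotypes, but within each of the 4 pools the EHT sum was the lower, at 0.546 to 0.659 times the arterial level. The fitted log2 fold change was -0.74 (SE 0.26, edgeR, adjusted p = 0.0338), and the call was lost in 7 of 14 alternatives, over which the value stayed between -0.99 and -0.56. Fosb had EHT values of 42.3, 7.48, 39.97 and 31.5 and arterial values of 53.2, 30.7, 68.5 and 52.0, the EHT sum again lower in all 4 pools, and did not pass the test (-0.76, SE 0.42, edgeR adjusted p = 0.162).

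Dusp1 was counted at 127, 88.1, 105 and 133 CPM in the EHT sums and at 120, 174, 123 and 195 in the arterial sums. The EHT level was the lower in 3 of 4 pools, with a log2 fold change of -0.36 (SE 0.13, edgeR, adjusted p = 0.0244) that 9 of 14 alternatives did not call. The remaining 5 members had overlapping sums and adjusted p-values from 0.224 to 0.837. Junb ran from 179 to 268 CPM in the EHT and from 239 to 366 in the arterial sums (log2 fold change -0.27), and Jund, the Jun family member with the steadiest transcription in most cells, from 545 to 909 and from 500 to 805 (0.13). Egr1 ran from 60.2 to 130 and from 22.9 to 104 (0.48), with the EHT sum the higher in 2 of 4 pools. Atf3 ran from 61.1 to 118 and from 67.8 to 107 (0.09), and Ier2, which encodes a nuclear protein of the early response, from 316 to 594 and from 350 to 487 (0.12).

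In all, 2 of 10 members were called higher and 2 lower in the EHT gate, where 25.1% of the 12052 genes tested were called higher and 25.6% lower. The members' median log2 fold change was 0.10, beside 0.00 over all genes, so that the 10 genes did not move as a block.

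**Figure D1:**
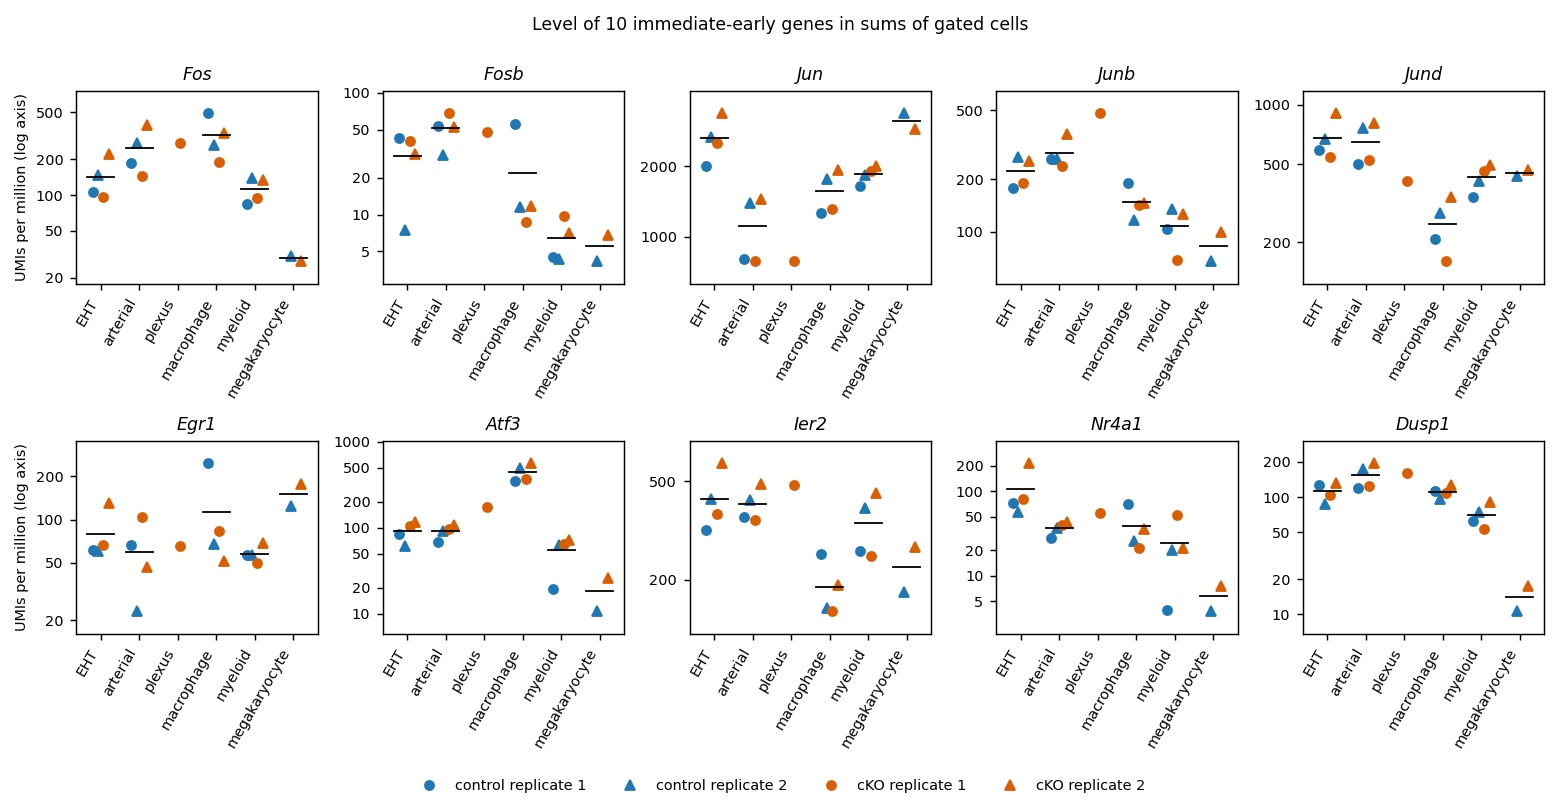
Level of each member (CPM, log axis) in every sum of gated cells, with the gates on the x axis; blue marks control and orange cKO, circles replicate 1 and triangles replicate 2, and the black line is the mean where a gate has several sums. Jun in the EHT gate (2015 to 3383) lies above the arterial gate (787 to 1449), Atf3 is highest in the macrophage gate (348 to 569), and Dusp1 is lowest in the megakaryocyte gate (10.6 and 17.4).

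Heat shock genes, which encode chaperones, were higher in the EHT gate as Jun was. Of the 10 genes of that list, 9 rose and none fell, with Hspb1 (3.07), Hspa1a (3.05), Hspa1b (2.94) and Dnajb1 (2.27) at the top. Dnaja1, named after its value was seen, did not pass (log2 fold change 0.15, edgeR adjusted p = 0.0545). Their summed level was 16936 to 22592 CPM in the EHT sums and 8537 to 10029 in the arterial sums, and Hspa1a alone was counted at 953 to 3121 and 59.1 to 521. The Jun difference was 1.34 at full depth and 1.33 with every cell thinned to 6000 UMIs. The part of the heat shock genes in it was not tested.

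Other genes of the pathway were called in both directions between the EHT and arterial gates, in counts that stand beside 25.1% of all genes higher and 25.6% lower and from which nothing is read about the lists. Of 30 further immediate-early genes tested, 7 rose and 9 fell, with a median log2 fold change of -0.01 beside 0.00 over all genes. Cebpb, which encodes a factor of myeloid differentiation, rose most (3.13, SE 0.18). The largest falls were those of Ctgf (-2.40), which encodes a matrix protein induced by stretch, Klf4 (-1.98), a gene that laminar flow induces in endothelium, and Gadd45b (-1.88), a stress-response gene. Among 18 kinases and factors upstream of the members, 3 rose and 7 fell. Crem, the gene of a factor that acts at cyclic AMP response elements, fell by 1.42 on the log2 scale, the genes of the Srf partners Elk4 and Elk1 by 0.97 and 0.90, and Mapk3, which encodes ERK1, by 0.90. The 3 that rose were Mkl1 (0.60), Atf1 (0.54) and Srf (0.50), named after their values were seen. Of 11 AP-1 partners and repressors of Egr proteins, 3 rose and 3 fell, with Batf at 2.37 and Batf3 at -2.66, both genes of dimer partners of Jun proteins, Nab2, which encodes an Egr corepressor, at -1.47, and Atf4, which encodes the effector of the integrated stress response, at 0.70.

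The macrophage gate differed from the arterial gate above all in Atf3, which encodes a stress-induced factor that restrains inflammatory genes. Atf3 was counted at 348, 503, 371 and 569 CPM in the macrophage sums and at 67.8, 92.2, 98.0 and 107 in the arterial sums. No sums overlapped, and the log2 fold change was 2.60 (SE 0.27, edgeR, adjusted p = 4.70e-06). Jun (0.82) and Fos (0.68, adjusted p = 0.0291) were called higher as well, while Jund (-1.10), Ier2 (-0.85), Junb (-0.65) and Fosb (-1.22) were called lower. Jund ran from 160 to 339 CPM in the macrophage sums, Ier2 from 148 to 253 and Junb from 117 to 191, each wholly below the arterial sums, while Fosb overlapped them through control replicate 1. These 3 higher and 4 lower members stand beside 37.6% and 34.7% of all genes, and the members' median was -0.02 beside 0.06 over all genes.

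Fos in macrophages needs the counts beside the fit. Its values were 492, 263, 192 and 335 CPM, above the arterial level in both replicate 1 pools and below it in both replicate 2 pools, and 5 of 14 alternatives did not call it. Fold changes come from counts normalised by TMM, which placed macrophage levels 0.29 higher on the log2 scale against the arterial gate than CPM does, myeloid levels 0.24, megakaryocyte levels 0.34, and EHT and plexus levels 0.06 and 0.00 higher. Egr1 did not pass (1.01, edgeR adjusted p = 0.0808), with macrophage values of 248, 67.3, 83.7 and 51.4.

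In the megakaryocyte gate all 10 members were called, 2 higher and 8 lower, where 35.9% of genes were higher and 33.8% lower. Both sums were from replicate 2 and both lay outside the range of the 4 arterial sums for every member. The share of all genes lying so was not counted, so that nothing is read from this about the members. The 10 erythroid markers, of which Hbb-bt was at 0, summed to 852 to 2832 CPM in these sums against 14.1 to 51.1 in the arterial sums, and their part in the result was not tested. Jun was counted at 3388 (control) and 2895 (cKO) CPM, a log2 fold change of 1.60 (SE 0.16, edgeR, adjusted p = 1.89e-06), and Egr1 at 125 and 178, a log2 fold change of 1.95 (adjusted p = 0.00824). Dusp1, at 10.6 and 17.4, fell by 3.31 on the log2 scale (SE 0.18, adjusted p = 3.69e-11), the greatest fall of any member in these 5 comparisons. Fos, at 30.8 and 27.6, fell by 3.01, Nr4a1 by 2.52, Fosb by 2.49, Atf3 by 2.29, Junb by 1.61, Ier2 by 0.76 and Jund by 0.46. The members' median was -1.95 beside 0.04 over all genes.

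Myeloid cells shared the high Jun of the EHT gate, with little Fosb. Jun was counted at 1655, 1843, 1911 and 2019 CPM, all above the arterial sums (log2 fold change 1.04, SE 0.13, edgeR, adjusted p = 1.58e-05). Fosb was at 4.45, 4.28, 9.71 and 7.00, all below the arterial sums (-2.68, SE 0.49, edgeR, adjusted p = 4.67e-04), and a Fosb UMI was found in 1.94% of thinned myeloid cells (exact 95% interval 0.532 to 4.90) against 19.2% of arterial cells. Junb (-1.10), Fos (-0.86), Dusp1 (-0.83) and Jund (-0.34) were called lower too, each with no overlap of the sums. One member was thus higher and 5 were lower, beside 36.6% and 36.9% of all genes, with medians of -0.53 and 0.00.

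The plexus gate rests on 17 cells of 1 pool, and its spread was taken from the other gates. Junb, at 482 CPM against 262, 261, 239 and 366 in the arterial sums, was the only member called (log2 fold change 1.08, SE 0.30, edgeR, adjusted p = 0.0411), and 8 of 13 alternatives did not call it. The call stands beside 4.57% of genes higher and 3.87% lower. Fos (0.84), Atf3 (0.95) and Ier2 (0.60) had adjusted p-values of 0.285 to 0.327. The 5 comparisons share the arterial sums, so that a high or low arterial value enters all of them.

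**Figure D2:**
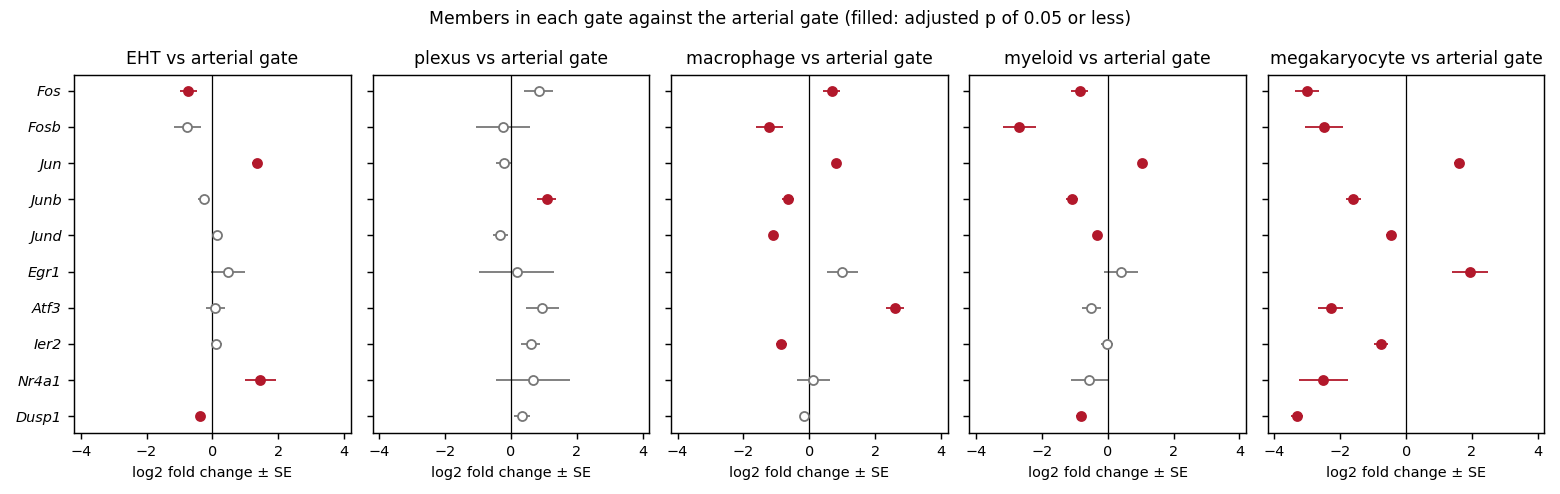
Log2 fold change of each member in 5 gates against the arterial gate (x axis, with bars of 1 SE from edgeR), filled red where the adjusted p was 0.05 or less and open grey otherwise. Jun is right of 0 in every gate except plexus, and 8 of the 10 members are left of 0 in the megakaryocyte gate.

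The order of the gates by mean level varied among the members, although Junb and Dusp1 shared theirs. These means cover different pools, since the plexus sum is from cKO replicate 1 and both megakaryocyte sums are from replicate 2. Within cKO replicate 1, Jun was at 791 CPM in the plexus and 787 in the arterial sum, and Fos at 277 and 145. For Jun the order of means ran from megakaryocyte (3142 ± 348 CPM, SD, n = 2) through EHT (2653 ± 565, n = 4), myeloid (1857 ± 153, n = 4), macrophage (1569 ± 329, n = 4) and arterial (1109 ± 362, n = 4) to plexus (791, 1 sum). Neighbours in this order were not told apart between megakaryocyte and EHT (log2 difference 0.25, edgeR adjusted p = 0.212), EHT and myeloid (0.31, 0.0627), myeloid and macrophage (0.22, 0.192) or arterial and plexus (0.22, 0.680), so that the step from macrophage to arterial was the one neighbouring step that passed. Heat shock genes summed to 18429 and 18507 CPM in the megakaryocyte sums, 16625 to 19517 in the myeloid, 12432 to 14518 in the macrophage and 9531 in the plexus sum, and their part in the order of Jun was not tested. For Fos the order ran from macrophage (321 ± 129, n = 4) through plexus (277, 1 sum), arterial (249 ± 109, n = 4), EHT (142 ± 56.5, n = 4) and myeloid (112 ± 27.8, n = 4) to megakaryocyte (29.2 ± 2.28, n = 2). The EHT and myeloid gates did not differ in Fos (0.12, edgeR adjusted p = 0.745), while EHT lay below macrophage by 1.41 (6.10e-04) and above megakaryocyte by 2.27 (2.42e-04). Nr4a1 had its highest mean in the EHT gate (105 ± 73.0, n = 4), followed by the plexus sum (55.8). The EHT level was above macrophage (38.3 ± 21.9, n = 4) by 1.33 on the log2 scale (edgeR adjusted p = 0.0246) and above myeloid (24.5 ± 20.2, n = 4) by 2.01 (adjusted p = 0.00608). The EHT mean includes 214 CPM in cKO replicate 2, with the other sums at 56.5 to 79.9, and neither contrast was refitted without that sum. In control replicate 1 the EHT and macrophage sums were at 71.4 and 69.8.

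Co-expression across single cells was measured as the Spearman correlation of log UMIs per 10000 in each stratum (1 gate, genotype and replicate) of at least 20 cells, 17 strata in all. It is given as a description, since cells of a stratum share a lane, a depth profile and the embryos. Between 39 and 45 of the 45 pairs of members had a positive correlation, depending on the stratum, and between 18 and 45 in thinned cells. After thinning, pairs with Fosb or Nr4a1 had a defined correlation in 16 of the 17 strata. In the stratum left they were counted as not positive, so that the low end of the thinned range is not a count of negative pairs. The median over the 45 pairs, averaged over strata, was 0.43 in the macrophage gate, 0.38 in the arterial, 0.32 in the EHT, 0.26 in the myeloid and 0.18 in the megakaryocyte gate. The median over pairs of all genes was near 0 in each stratum, with a 95th percentile from 0.160 to 0.412. After thinning every cell to 6000 UMIs the averages fell to 0.25, 0.25, 0.14, 0.12 and 0.09 in the same order, and the correlation of single members with depth ran from -0.39 to 0.42.

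Fos and Jun were correlated across arterial cells, and less so across EHT-gate cells of every pool. The correlation between them was 0.48, 0.66, 0.57 and 0.76 in the arterial strata of control replicate 1, control replicate 2, cKO replicate 1 and cKO replicate 2 (123, 96, 83 and 107 cells). In the EHT strata it was 0.04, 0.17, -0.11 and 0.03 (38, 39, 48 and 20 cells), all below the arterial strata. In the macrophage gate it was 0.62, 0.59, 0.17 and 0.57. Thinned cells gave -0.25 to 0.01 in the EHT strata and 0.37 to 0.66 in the arterial ones, and gates on CPM gave 0.09 to 0.33 and 0.48 to 0.76. Pairs whose 4 EHT values all lay below the 4 arterial values numbered 3 of 45, Fos with Jun, Fosb with Jun and Jun with Junb, and no pair lay wholly above. Such counts were not made for pairs of other genes, and the EHT strata hold fewer cells, so that nothing is read from them about the members. With thinning, Fos with Jun remained among 5 such pairs, Fosb with Jun and Jun with Junb did not, and 1 pair lay wholly above. Against the 3 myeloid strata at full depth, 2 pairs of the EHT gate lay wholly below, Fosb with Jun and Jun with Ier2, and 2 wholly above. Fos with Jun was not among those below, so that its low values were not particular to the EHT gate on this count.

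Within the EHT gate the closest pairs at full depth joined Fos to Junb and to Fosb, and Jun to Atf3. The highest mean correlation was between Fos and Junb (0.59, range 0.41 to 0.72 over 4 strata), then Fos and Fosb (0.56, 0.19 to 0.78) and Jun and Atf3 (0.55, 0.41 to 0.68). In thinned cells Ier2 with Nr4a1 came first (0.44), ahead of Fos with Junb (0.42) and Jun with Atf3 (0.33), and Fos with Fosb was at 0.27. The lowest were Fosb with Jun (-0.04) and Fos with Jun (0.03). In the arterial gate the highest were Jun with Jund (0.62), Fos with Jun (0.62) and Fos with Fosb (0.60), and the lowest was Egr1 with Atf3 (0.19). In macrophages the order was led by Fos with Dusp1 (0.62), Egr1 with Atf3 (0.56) and Junb with Atf3 (0.55). Over all 17 strata Fos with Fosb (mean 0.50) and Jun with Jund (0.47) were positive in every stratum.

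**Figure D3:**
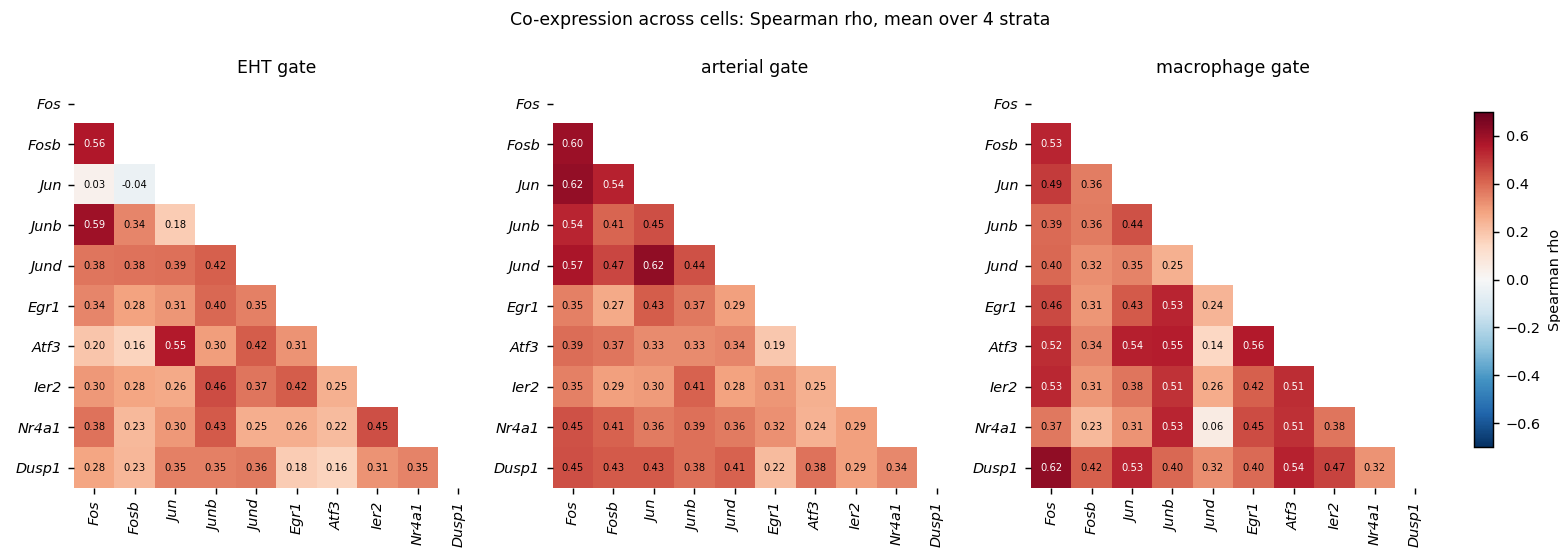
Spearman correlation between every pair of members, averaged over the 4 strata of the EHT, arterial and macrophage gates (colour scale from -0.7 to 0.7, value in each cell). The cells of Fos with Jun and Fosb with Jun are near white in the EHT gate (0.03 and -0.04) and red in the arterial gate (0.62 and 0.54).

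**Figure D4:**
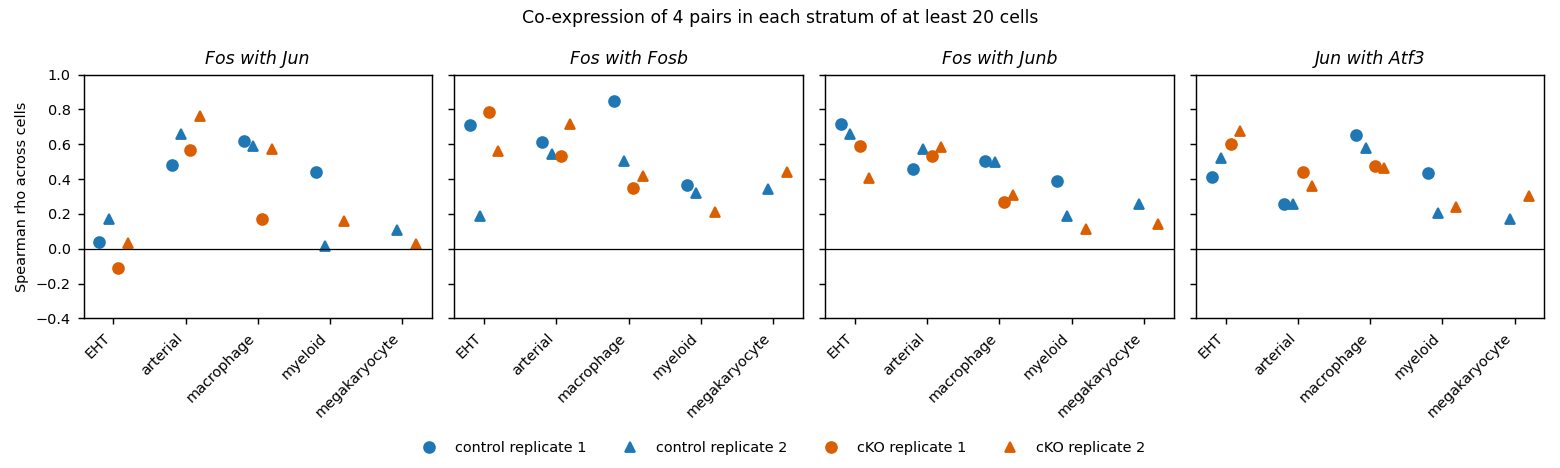
Spearman correlation across cells (y axis) for 4 pairs in each stratum of at least 20 cells, by gate; blue marks control and orange cKO, circles replicate 1 and triangles replicate 2. For Fos with Jun the 4 EHT strata (-0.11 to 0.17) lie below the 4 arterial strata (0.48 to 0.76), while Fos with Junb is positive in all 17 strata.

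Genes outside the 10 whose mean correlation with the members was highest were mostly other early-response genes. In the EHT gate these were Btg2, an antiproliferative gene (mean correlation 0.43 over 4 strata), Ier3 (0.37), Klf6 (0.36), Zfp36 (0.36) and Ppp1r15a (0.36), out of 8096 genes compared, with Clk4, Hes1, Ifrd1 and Cyr61 further down (0.26 to 0.27). In the arterial gate they were Klf6 (0.46), Ppp1r15a (0.45), Cyr61 (0.42), Zfp36 (0.41) and Hes1 (0.36), out of 6334 genes, followed by Klf2, Klf4, Ccnl1, Rhob and Btg2 (0.31 to 0.33). In the macrophage gate they were Ier5 (0.51), Zfp36 (0.50), Hspa1a (0.46) and Nfkbia (0.45), out of 7598, followed by the chemokine gene Ccl3 (0.44), Klf6, Ccnl1, Hspa1b and Ier3 (0.39 to 0.42). Zfp36, which encodes a protein that destabilises mRNAs of cytokines, and Klf6 were among the 10 in each of the 3 gates.

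Loss of Nupr1 was compared within the EHT, arterial, myeloid and macrophage gates, with 2 cKO and 2 control sums in each. The megakaryocyte and plexus gates had too few sums for a test between genotypes. No member passed the test in any of the gates tested (edgeR without a block, adjusted p of 1.00 throughout). All genes called numbered 2 in the EHT gate, Nupr1 (log2 fold change -4.32, adjusted p = 0.00325) and Nts (-3.19, adjusted p = 0.0298), 0.0212% of 9443 genes, and 0 (0%) in the arterial, myeloid and macrophage gates, where 100, 45 and 53 genes had an unadjusted p under 0.05. Member values in the EHT gate were nonetheless all on one side, with 10 of 10 log2 fold changes above 0, from 0.01 for Junb to 1.21 for Nr4a1 (SE 0.40), and a median of 0.37 beside 0.01 over all genes. In the arterial gate they were also all above 0 (median 0.24), in the myeloid gate 9 of 10 (0.11) and in the macrophage gate 4 of 10 (-0.14). With 2 sums a side the smallest exact permutation p is 0.333, and the members are co-expressed, so that a shared sign over 10 genes is not 10 observations.

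Both genotypes of a replicate shared a lane, and with the replicate as a block 127 genes were called in the EHT gate. Of these 56 were higher in cKO (0.593% of genes), and they included 4 members. Jun was higher in cKO by 0.35 on the log2 scale (SE 0.06, edgeR with the replicate block, adjusted p = 1.94e-06), Atf3 by 0.63 (SE 0.14, 0.00212), Egr1 by 0.64 (SE 0.15, 0.00534) and Ier2 by 0.37 (SE 0.10, 0.0126). Nr4a1 did not pass (1.08, adjusted p = 0.929). In the arterial gate the block gave 34 genes, 15 of them higher (0.148%), among them Egr1 (0.79, SE 0.17, edgeR adjusted p = 0.00129). No member was called with the block in the myeloid or macrophage gate. The blocked fit has 4 sums and leaves 1 residual degree of freedom, its spread being borrowed across genes.

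The values within each replicate show how unequal the pools were. For Jun in the EHT gate the cKO sum was 1.26 times the control sum in both replicates (2532 against 2015 and 3383 against 2683). For Nr4a1 it was 1.12 times in replicate 1 and 3.79 times in replicate 2, and for Egr1 1.08 and 2.16 times. Across members the cKO sum was the higher for 6 of 10 in replicate 1 (median log2 difference 0.11) and 9 of 10 in replicate 2 (0.58). Replicate 2 had 20 EHT-gate cells from cKO. Without that sum the members' median difference in the EHT gate was 0.05, with 5 of 10 above 0, and in the arterial gate, without the same pool, -0.15. In the macrophage gate the cKO sum was the higher for 2 members in replicate 1 and for 9 in replicate 2.

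Embryo composition differed between the genotypes. Xist, transcribed in female cells, was counted at 355 and 222 CPM in the control EHT sums and at 0.339 and 80.5 in the cKO ones, so that genotype and the share of female cells cannot be told apart in these pools. Whether the genotype effect differed between the EHT and arterial gates was tested as an interaction, in which 0 of 10531 genes (0%) were called and 214 had an unadjusted p under 0.05. For the members this difference ran from -0.24 (Junb, SE 0.41) to 0.84 (Nr4a1, SE 0.56).

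**Figure D5:**
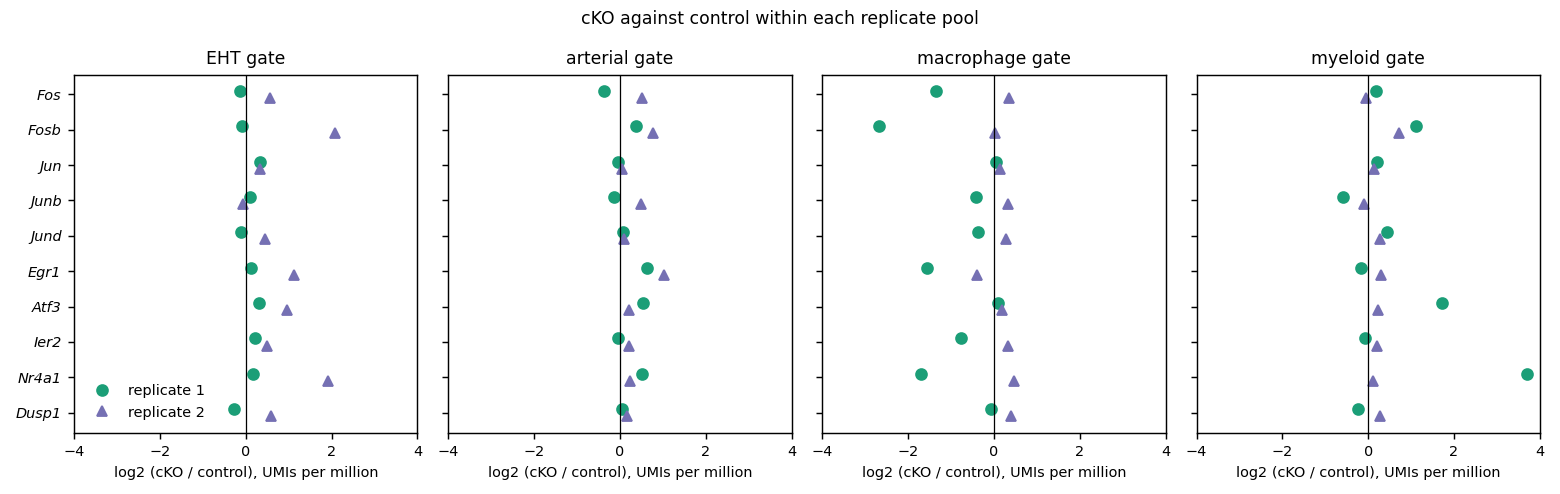
Log2 ratio of cKO to control CPM (x axis) for each member within replicate 1 (green circles) and replicate 2 (purple triangles), in 4 gates. In the EHT gate Jun sits at 0.33 in both replicates, while Nr4a1 and Fosb sit at 0.16 and -0.08 in replicate 1 and at 1.92 and 2.07 in replicate 2.

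The replicates themselves differed in these genes. Replicate 2 was higher than replicate 1 in all 8 gate and genotype pairs for Jun (median ratio 1.36) and Jund (1.44), and in 7 of 8 for Fos (1.56), Atf3 (1.24) and Ier2 (1.37). Fosb went the other way and was lower in 7 of 8 (median ratio 0.740), and Egr1 was lower in 6 of 8 (0.800). The comparisons between gates carry the pool as a block, which takes up only shifts that the gates share. Some shifts were not shared: for Egr1 in cKO the ratio was 1.97 in the EHT gate and 0.448 in the arterial gate.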

How the data were processed

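The sources were raw UMI counts per gene and cell for 2 pooled samples, with a table of each cell's hashtag. The authors made the deposited counts with Cell Ranger 5.0.1 (mm10 in the submitters' processing notes) and kept hashtag singlets with HTODemux. No doublet caller was run here. The study's stated limits are over 1800 genes, over 6000 UMIs and under 5% mitochondrial reads, and 101 cells, all of replicate 1, lay outside them. The tables hold 32430285 and 91511039 UMIs, from 678 and 1461 cells, with 334 control and 344 cKO cells in replicate 1 and 748 and 713 in replicate 2. Genotype was taken from each cell's hashtag label, and heat shock, marker and pathway lists were applied as written. The members and lists were chosen with earlier results of these data known.

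Sums of counts were tested with edgeR 4.0.16 in R 4.3.3 (quasi-likelihood, TMM, filterByExpr, robust, Benjamini-Hochberg threshold 0.05), with the pool as a block between gates and without a block between genotypes. Deviations from the group means of sums with the same replicate number correlated at 0.42 to 0.44, and the labels put both genotypes of a number in the same lane, so the numbers pair the samples. Correlations and thinning used Python 3.11.15 and scipy 1.17.1. Intervals on shares of cells are exact binomial 95% intervals and cover counting error only. Genes were named by fixed rules: all 10 members, Nupr1, up to 4 genes of each list with the greatest change among those called between the EHT and arterial gates, and the 10 genes with the highest mean Spearman correlation with the members (detected in at least 25% of cells of each stratum) in 3 gates, of which some are not reported here. On counts simulated for 12052 genes the EHT to arterial fit recovered 64% of 2-fold and 89% of 4-fold changes, and the genotype fit in the EHT gate, on 9443 genes, 19% and 84%. The alternatives tried were other gates, thinned cells, the stated cell limits, each pool left out, a single fit over all gates, the block added or dropped, all genes kept whatever their count, size factors by RLE, and DESeq2 1.42.0. Sums of at least 4 cells were added after the data were seen.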

Additional observations from a re-analysis of the deposited data

Results flagged for a closer look

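Among 40 sets of 4 sums (a member in a gate), 4 held a sum that stood apart by Dixon's criterion, which chance gives in about 1 in 20 sets. Egr1 was counted at 130 CPM in the EHT sum of cKO replicate 2, with the other 3 sums between 60.2 and 66.1. Nr4a1 stood at 214 in the same sum of 20 cells, with the others between 56.5 and 79.9. Fosb was at 55.4 in the macrophage sum of control replicate 1, which holds 24 cells, and at 8.69 to 11.7 in the others. In that same sum Egr1 was at 248, with the others between 51.4 and 83.7.

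For Egr1 the cKO and control sums lay in opposite order in different gates. The mean log2 difference of cKO from control over the 2 replicates was 0.61 in the EHT gate and 0.83 in the arterial gate, with cKO the higher in both replicates of both gates, and -0.98 in the macrophage gate, with cKO the lower in both. The macrophage value averages -1.57 in replicate 1, where the control sum is the one of 24 cells given above, and -0.39 in replicate 2. Egr1 was not called between genotypes in the macrophage gate by edgeR, either without a block (adjusted p = 1.00) or with the replicate block (adjusted p = 1.00). The difference between gates was not tested.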

How the results depend on the processing

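Over 475 alternative values of 34 named member results, 413 kept their direction and side of the threshold, 52 were no longer called, 9 were newly called and 1 reversed (Ier2, cKO against control in the EHT gate, -0.0086 without cKO replicate 2, with 0.72 as its highest value on leaving out a pool). Members called between the EHT and arterial gates numbered 2 in place of 4 without the replicate block, without the low-count filter, with gates on CPM and with doubled thresholds, and 1 to 4 leaving out a pool. In the plexus gate 0 members in place of 1 were called without the replicate block, under RLE, without the filter, with either other gate rule, without cells in both EHT and arterial gates and after thinning, 3 with sums of at least 4 cells, and 0 to 3 leaving out a pool. Leaving out a pool gave 6 to 10 in the megakaryocyte, 4 to 6 in the myeloid and 5 to 7 in the macrophage gate. In the plexus gate DESeq2 split its calls into 517 higher and 287 lower, against 551 and 466.

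Thinned cells gave 2631 genes in place of 6101 for EHT, 166 in place of 1017 for plexus, 4811 in place of 8863 for myeloid, 4570 in place of 8397 for megakaryocyte and 5113 in place of 8706 for macrophage, each against arterial. Sums of at least 4 cells gave 2005 for plexus. Leaving out a pool gave 5005 to 5553, 893 to 921, 7769 to 8358, 6689 to 8193 and 7648 to 8312 genes in the same order.

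Between genotypes the replicate block raised the count in the EHT gate from 2 to 127 genes (4 members), in the arterial from 0 to 34 (1 member), in the myeloid from 0 to 4, in the macrophage from 0 to 5 and in the interaction from 0 to 2. Without the low-count filter the counts were 22 (1 member, Nr4a1), 4, 8, 3 and 32. In the EHT gate 1 gene was called with gates on CPM, doubled thresholds, no cells in both gates or the stated limits, and 0 after thinning or in a single fit over all gates. DESeq2 called 4 genes in the myeloid and 1 in the macrophage gate, either other gate rule 2 in the myeloid gate, and thinning 1 in the macrophage gate. Leaving out a pool gave 5 to 63 genes (0 to 2 members) in the EHT gate, 1 to 22 (0 to 1) in the arterial, 11 to 57 (0 to 1) in the myeloid and 6 to 35 (0 to 2) in the macrophage gate, and 0 in the interaction, where a lone sum was assumed to vary like the others. Mean co-expression after thinning was 0.14 (EHT), 0.25 (arterial), 0.12 (myeloid), 0.0886 (megakaryocyte) and 0.25 (macrophage), and 0.20 in the myeloid gate with gates on CPM. Thinning and leaving out a pool leave fewer counts or sums, and the cause of these changes was not tested.

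The gates are thresholds on single genes, the plexus and megakaryocyte gates rest on 1 and 2 sums, and a low level in few cells is not told from its absence at this depth.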

Other observations

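At an equal depth of 6000 UMIs a cell showed several members at once. The median number of members with a UMI was 5 of 10 in the EHT and arterial gates, 4 in the myeloid and macrophage gates and 3 in the megakaryocyte gate. The median sum of member UMIs was 25 in EHT-gate cells, 22.5 in megakaryocyte-gate cells and 12 in arterial cells, and 1 of 145 EHT-gate cells and 5 of 402 arterial cells of that depth held none. At full depth Jun made up 56.2% to 61.3% of member UMIs in the EHT sums and 31.8% to 40.3% in the arterial sums. The total is therefore not read as a level of the 10 genes together.

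The other genes of the pathway lists were also counted in the remaining gates against the arterial gate. The shares of all genes called higher and lower were 36.6% and 36.9% in the myeloid, 35.9% and 33.8% in the megakaryocyte, 37.6% and 34.7% in the macrophage and 4.57% and 3.87% in the plexus gate, and no list was tested against them. Of the further immediate-early genes, 6 of 30 rose and 16 fell in the myeloid gate (median log2 fold change -0.90), and 5 rose and 17 fell in the megakaryocyte gate (-1.24), while 9 rose and 10 fell in the macrophage gate (-0.09) and 4 rose and none fell in the plexus gate (0.46). Heat shock genes rose in 9 of 10, 10 of 10 and 9 of 10 cases in the myeloid, megakaryocyte and macrophage gates and in 0 of 10 in the plexus gate, and 1 fell in the macrophage gate. Kinases and factors upstream of the members rose in 6, 8 and 5 of 18 cases and fell in 7, 6 and 7 in the myeloid, megakaryocyte and macrophage gates. Partners and repressors rose in 5, 3 and 6 of 11 cases and fell in 6, 6 and 5. None of the 4 lists held a gene called between genotypes by edgeR without a block.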
